A study of Mus musculus with 28 samples.

Results

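The experiment described here followed CD4 T cells through their first 2 days of culture with or without a signal through the T cell receptor. Its members were chosen by sample title: 3 arrays of stimulated and 3 arrays of unstimulated CD4 cells from day 2, which is 6 of the 28 arrays of the series. Every one of the 12393 genes that the array platform measured with its own probe set was used. The cells were CD4+ cells that carried the AND transgene, a T cell receptor that sees its antigen on MHC class II, on the C57BL/6N background. Both groups were cultured for 2 days with 5 ng/ml IL7. The stimulated cells lay on plates coated with 10 µg/ml antibodies to CD3 and CD28, the unstimulated cells on untreated plates, and both were then sorted again to over 99% purity. The total RNA was amplified before it was hybridised to Affymetrix Mouse 430A2 arrays. Per the series text the 3 arrays of a group are independent biological replicates. As models, both groups share a single transgenic receptor, added IL7 and an antibody signal in place of antigen, so the unstimulated group is cultured and fed and is not freshly isolated tissue. Later arrays of the same kind of cells, taken on day 5 after 3 days in hosts, show what became of the response: cells never stimulated (2 arrays), cells rested in hosts without antigen after 2 days of stimulation, called transient (2 arrays), and cells moved into hosts with antigen, called continuous (3 arrays).

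A resting CD4 T cell is small, does not divide and keeps itself alive on IL7 while it recirculates through lymph nodes. Engagement of the receptor together with CD28 switches on calcium, MAP kinase and NF-κB signalling, which act through transcription factors of the NFAT, AP-1, EGR and REL families. Within hours these raise MYC and IRF4, after which the cell takes up amino acids and glucose, enlarges its ribosome and mitochondrial capacity, enters the cell cycle and begins to make cytokines. Surface receptors for IL2 appear, inhibitory receptors and signal-damping proteins follow, and the genes that keep a cell quiescent and homing to lymph nodes are shut down.

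The 6 arrays were not equal in quality. The third unstimulated array had a median log2 signal of 5.30 over all genes, against 6.88 and 6.89 on the other unstimulated arrays and 6.97 to 6.99 on the stimulated ones. On that array Cd4 read 5.40 and Cd8a and Cd8b1 read 9.88 and 10.50, whereas the first and second unstimulated arrays had 8.77 and 8.41 for Cd4, 6.59 and 6.90 for Cd8a, and 5.71 and 6.60 for Cd8b1. It is therefore called here the array labelled as the third unstimulated CD4 array, or the doubted array. By Cd4 and Cd8a the CD4 label held on the other 5 arrays: the stimulated arrays read 9.18 to 9.29 for Cd4 and 5.15 to 6.49 for Cd8a. The mean over 7 CD8 markers was 7.07, 7.69 and 9.11 on the unstimulated and 6.48 to 6.65 on the stimulated arrays. For 57.1% of these markers, Klrd1 among them, the stimulated arrays lay wholly below, beside 4.17% of all genes. For 6 NK cell markers the means were 5.16 to 5.63 and 5.30 to 5.53. The 3′ minus 5′ difference of the Actb control probe sets, which grows when RNA is broken or amplified from its tail, was 3.37 to 4.30 on the unstimulated arrays and 1.11 to 1.39 on the stimulated arrays. It moves with every day 2 comparison below, and its part in them was not tested. Markers of B cells, myeloid cells, red cells and stroma averaged below the median signal of each array. The gap was small in places: on the first unstimulated array B cell markers averaged 6.69, beside a median of 6.88. The mean over 12 B cell markers was 4.76 to 6.69 on unstimulated and 5.25 to 5.46 on stimulated arrays. For 16 myeloid and dendritic markers the ranges were 4.32 to 6.43 and 5.33 to 5.36, for 7 red cell and platelet markers 4.77 to 6.50 and 5.36 to 5.44, and for 9 stroma and endothelium markers 4.12 to 6.28 and 4.96 to 5.03. Of the B cell, myeloid, red cell and stroma lists 1 gene was called, Ighm, the heavy chain of IgM. It read 12.13, 12.75 and 11.00 unstimulated and 9.81, 9.29 and 10.22 stimulated. Without the third unstimulated arrays of CD4 and CD8 cells, the fit described next, 11 of 12 B cell, 13 of 16 myeloid, 7 of 7 red cell and 8 of 9 stroma markers were called lower in stimulated cells, where 39.4% of all genes were. Their part in the comparison was not tested. Arrays give no value of 0, so the absence of a marker cannot be stated. In RNA from many cells, fewer cells of a type and less RNA per cell cannot be told apart.

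**Figure D1:**
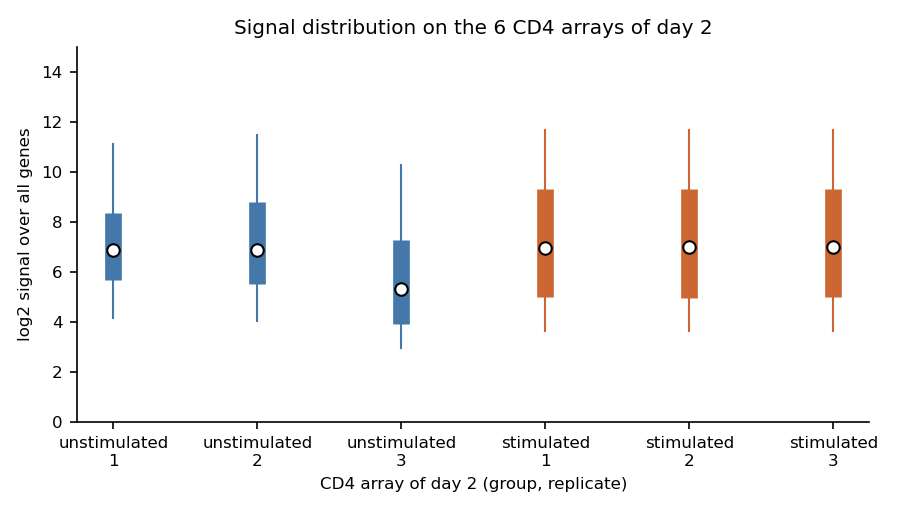
Log2 signal of all genes on each of the 6 CD4 arrays of day 2 (x axis: group and replicate). The thin line runs from the 5th to the 95th percentile, the bar from the 25th to the 75th and the dot is the median. The stimulated arrays have medians of 6.97 to 6.99, and the third unstimulated array lies lowest at 5.30.

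After 2 days the response was broad and mostly upward. A linear model over the 12 arrays of day 2 (limma, adjusted p below 0.05 over all genes) called 1320 genes higher in stimulated cells, 10.7% of those tested, and 89 genes lower, 0.718%. Rises ranged from 1.29 to 8.09 on the log2 scale with a median of 2.70, and falls from −1.20 to −5.30 with a median of −2.20. At least 16-fold changes were seen for 163 of the rises and 8 of the falls. The groups did not overlap for 1318 of the 1320 rises and all 89 falls, but over all genes the stimulated arrays lay wholly above the unstimulated ones for 29.0% and wholly below for 4.17%. Where a risen gene had several probe sets (621 genes), all of them moved the same way for 447, and for 30 of 40 such falls. Taking the mean of a gene's probe sets in place of the brightest ended the call for 9 of the 134 called genes named here: Atf4 (1.38), Bcl2l1 (1.27), Bcl2l2 (0.46), Hspa9 (1.18), Il15ra (2.01), Il2rb (1.74), Dgkz (−0.74), Ighm (−0.58) and Ndufa5 (−0.77). Another 15 kept their call with a difference that moved by over 1.5 times, such as Scd2 (6.15 to 2.52), Chek1 (4.90 to 1.88) and Irf4 (7.99 to 4.71).

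The number of calls depended on that doubted array. The third unstimulated CD8 array, which shares the fit, was low as well: over all probe sets the medians of these 2 arrays were 4.83 (CD4) and 4.97 (CD8), against 6.29 to 6.53 on the other 10 arrays of day 2. It too went against its label, with Cd8a at 5.78 and Cd8b1 at 4.79, where the other unstimulated CD8 arrays read 11.62 to 12.18. Its Cd4 read 7.02 at the low median of 4.97, and theirs read 7.35 and 7.21 at medians of 6.42 and 6.41. Whether these 2 arrays were exchanged or mixed was not tested. With both doubted arrays left out 3251 genes (26.2%) were higher and 4888 (39.4%) lower, and every one of the 1320 rises and 89 falls was called again in the same direction. Without the third unstimulated CD4 array alone, 1039 genes (8.38%) were higher and 2250 (18.2%) lower, and 1009 of the 1320 rises were called again, as were all 89 falls. The count of falls therefore rests on that array. It rested on the scaling too: quantile normalization of the deposited values gave 1438 higher and 1484 lower, with the median difference of all genes at −0.15 in place of 0.14, and centring each array on its median gave 2173 and 3727, with that median at −0.48. All 89 falls and 1081 and 1294 of the 1320 rises were kept under these, and none was called the opposite way. At the deposited scale the median standard error of a difference was 0.56 with it and 0.24 without both doubted arrays. The split also followed brightness. With the genes cut into 3 equal classes by mean signal, the brightest had 682 higher and 66 lower, the middle 596 and 21, and the dimmest 42 and 2. Without both doubted arrays the dimmest class had 100 higher and 2745 lower, with a median difference of −0.73, while the brightest had 1970 higher and 562 lower, with a median of 0.66. The medians of the dimmest genes were 5.32, 5.11 and 3.58 on the unstimulated and 4.46 to 4.48 on the stimulated arrays, so dim genes read higher on the first and second unstimulated arrays than on any stimulated one. Leaving out 1 stimulated array left 529, 649 and 582 rises and 37, 39 and 32 falls (the first, the second and the third array), and leaving out the first or the second unstimulated array left 949 and 1672 rises and 53 and 58 falls. Of the 1320 rises 501 stayed called, and of the 89 falls 28, when each of the 6 CD4 arrays was left out in turn. Genes named below stayed called in those 6 fits unless a number of fits is given.

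Across 36 lists of T cell biology with 993 measured genes, 334 genes were higher and 13 lower, and without both doubted arrays 561 were higher and 145 lower. The lists with the highest medians were receptor-signal transcription factors (3.46), genes of amino acid supply of the kind ATF4 controls (3.22), mitosis (2.97), replication (2.71) and the tRNA synthetases (2.70), set beside a median of 0.14 over all genes. Of 33 lists with a median above 0, 6 had one below 0 under both scalings: quiescence, the receptor complex, the respiratory chain, the BCL2 family, lysosome and interferon response. Sterol synthesis did so under quantile normalization alone and T helper fate under median centring alone. Of the 26 lists with no member called lower, 19 had at least 1 under quantile normalization and 18 under median centring, so such a count below holds for the deposited scale. Each day 2 count of called members below stands beside 10.7% higher and 0.718% lower over all genes. Without both doubted arrays those all-gene shares were 26.2% and 39.4%. Cytosolic ribosomal proteins, with a median of −0.12, and cytotoxic effectors, with −0.07, were at the other end.

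**Figure D2:**
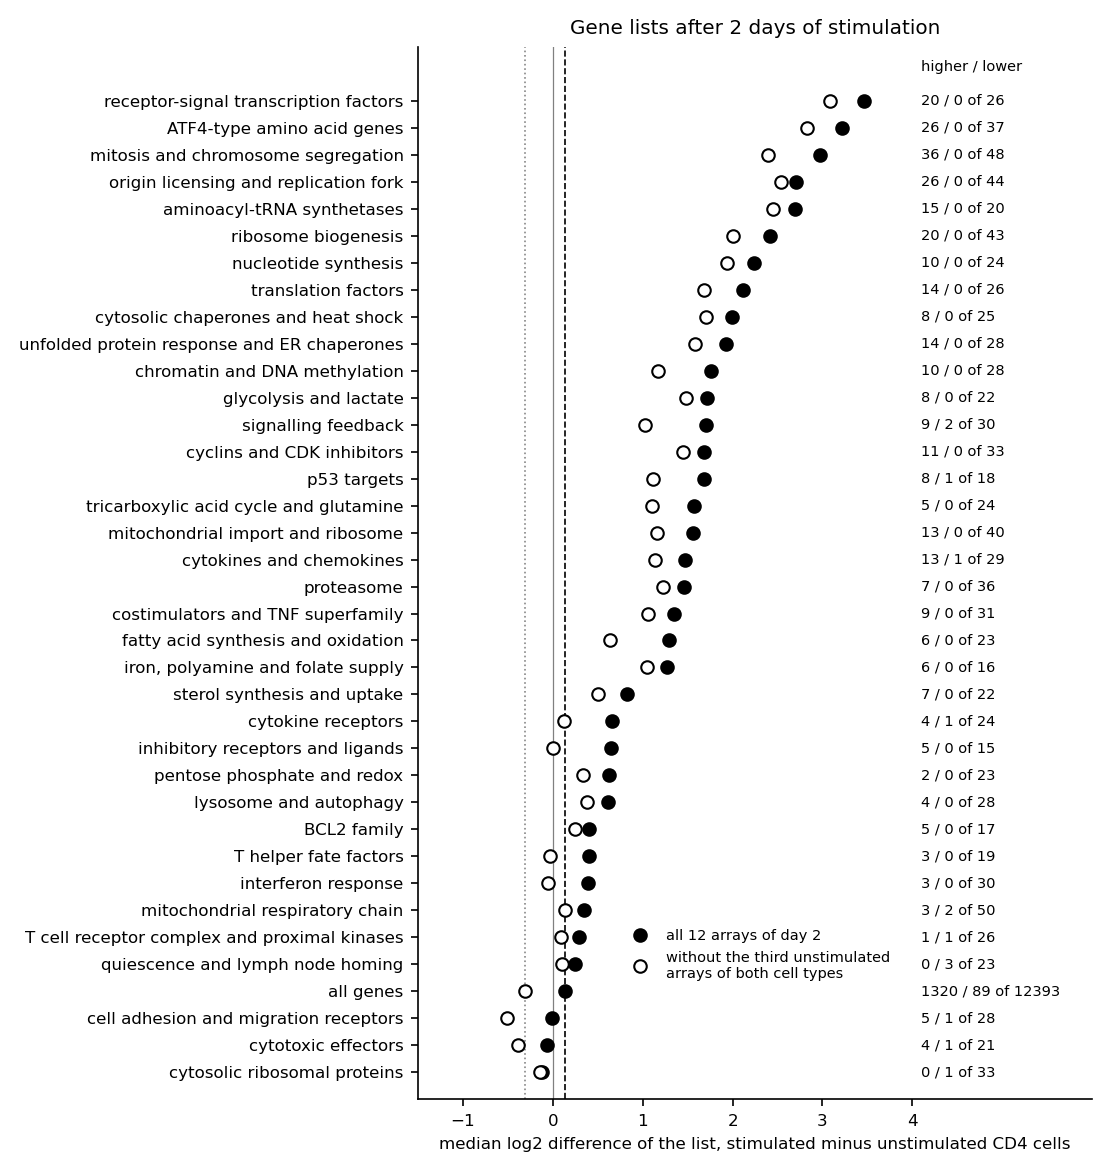
Median log2 difference between stimulated and unstimulated CD4 cells for each gene list (x axis), from all 12 arrays of day 2 (filled) and without both doubted arrays (open), with the members called higher and lower at the right. The dashed and dotted lines are the medians over all genes, 0.14 and −0.31, and the lists of receptor-signal factors, ATF4-type genes, mitosis and replication lie farthest to the right.

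Transcription factors that lie directly under the receptor formed the list with the highest median. Of 26 measured, 20 rose and none was called lower, and 17 of the 20 stayed called in all 6 fits. Irf4, the receptor-dosed factor that drives effector differentiation, was at 5.51, 5.85 and 3.46 on the unstimulated arrays (replicates 1, 2 and 3, an order kept below) and at 13.10, 13.00 and 12.70 on the stimulated arrays. The groups lay far apart, and the rise was 7.99 (SE 0.62, adjusted p = 1.86e-05). Bhlhe40, a repressor that helps effector cells make cytokines, went from 6.80, 6.65 and 4.85 to 12.34, 11.89 and 12.14, with no overlap and a rise of 6.02 (SE 0.57, adjusted p = 5.26e-05). Myc, the growth regulator, went from 7.11, 7.88 and 7.21 to 10.87, 10.84 and 11.35 (rise 3.62, SE 0.74, adjusted p = 0.0073). All 3 unstimulated Myc values were close together, the doubted array included. Each arm of the signal was represented among the rises. Nfatc1, a calcium-driven factor that induces its own gene, rose by 3.93, and the AP-1 members Fos and Junb rose by 4.18 and 3.87. Relb and Nfkb2, of the slower NF-κB branch, rose by 3.90 and 3.47. Batf and Irf8, partners of AP-1 and IRF complexes, rose by 2.54 and 4.45, and the stress factor Atf3 by 4.93.

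A pair of early reporters of the receptor behaved otherwise. Egr3, a brake on T cell activation, read 8.64, 8.97 and 5.92 unstimulated and 7.41, 7.38 and 7.55 stimulated, a difference of −0.39 that was not called (adjusted p = 0.796). The stimulated arrays lay between the doubted array and the other unstimulated ones, and without both doubted arrays the difference was −1.36 and was called lower. For Nr4a3, an orphan receptor induced within hours of receptor engagement, the values were 7.91, 7.06 and 4.74 against 6.02, 5.78 and 5.86, a difference of −0.68 that became −1.60 and called without them. Egr2 of the same family as Egr3 rose by 6.38 (SE 0.65, adjusted p = 8.82e-05).

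Of 19 genes that set T helper fate 3 rose and 16 were not called, a share not far above the 10.7% of all genes. Tbx21, which encodes T-bet and directs Th1 cells, went from 5.20, 5.94 and 5.48 to 11.52, 11.38 and 10.81, with no overlap and a rise of 5.69 (SE 0.55, adjusted p = 5.26e-05). The others were Stat5a, a transducer of IL2 signals (3.12), and Zbtb32, a repressor in effector cells (2.85), each called in 4 of the 6 fits and lost without the first or the third stimulated array.

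Genes that damp the receptor's signal rose in part. Of 30 feedback genes 9 rose and 2 fell (6.67%), beside 10.7% higher and 0.718% lower among all genes. The receptor complex and its proximal kinases had 1 of 26 genes higher and 1 lower (3.85% each). Feedback genes had 15 higher (50.0%) and 7 lower (23.3%) without both doubted arrays, beside 26.2% and 39.4% of all genes. The receptor list then had 8 higher (30.8%) and 5 lower (19.2%). Dusp6, the phosphatase that switches off ERK, read 5.78, 4.70 and 3.71 unstimulated and 11.14, 10.53 and 11.96 stimulated (rise 6.48, SE 0.84, adjusted p = 0.000485). Rgs1, which dulls chemokine receptors, read 4.52, 6.28 and 4.59 against 10.91, 10.97 and 10.93 (rise 5.81, SE 0.54, adjusted p = 4.67e-05). Neither gene overlapped between the groups, and the stimulated Rgs1 values were nearly the same on all 3 arrays. Spry1, an inhibitor of the RAS pathway, rose by 5.00, and Egln3, an oxygen-sensing hydroxylase, by 3.68. The 2 falls were the diacylglycerol kinases, which remove the second messenger of the RAS pathway. Dgka fell from 11.68, 11.37 and 10.93 to 9.34, 9.59 and 8.82 (−2.08, SE 0.45, adjusted p = 0.0104). Dgkz fell from 13.59, 13.69 and 13.08 to 11.93, 11.76 and 12.00 (−1.56, SE 0.38, adjusted p = 0.0185). Dgka was called in 5 of the 6 fits, not without the third stimulated array, and Dgkz in 3, not without any 1 of the stimulated arrays. Of the 2 probe sets of Dgkz 1 was lower. In the receptor list Tec, a kinase that relays the receptor signal to calcium, fell from 10.65, 11.54 and 10.70 to 6.53, 6.82 and 6.47 (−4.36, SE 0.53, adjusted p = 0.000274). Lcp2, the adaptor SLP-76, rose by 2.08, in 3 of the 6 fits and in none that left out a stimulated array. The groups did not overlap for Tec or Lcp2.

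**Figure D3:**
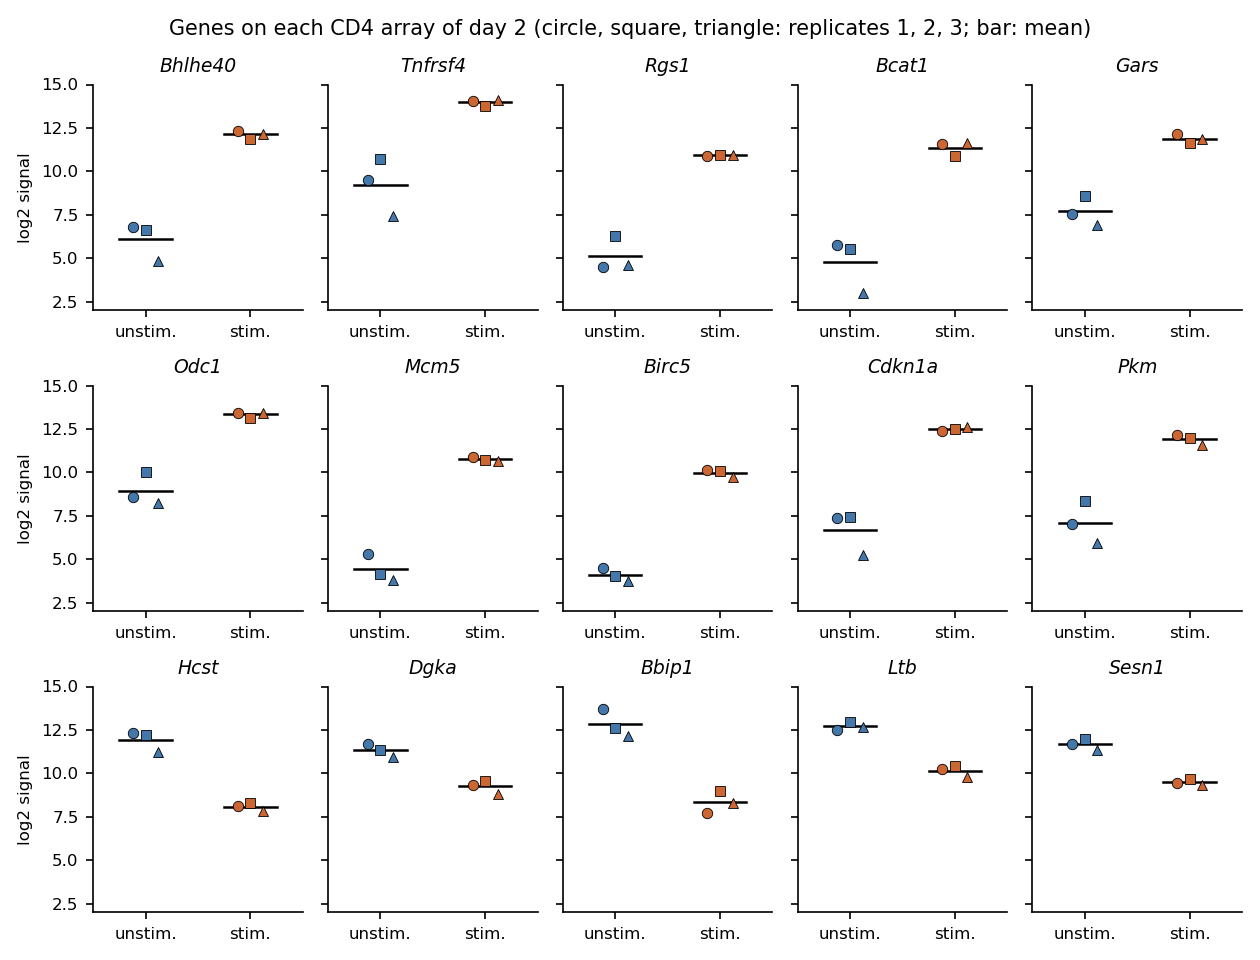
Log2 signal (y axis) of 15 genes on each unstimulated and stimulated CD4 array of day 2, with symbols for replicates 1, 2 and 3 and a bar at the group mean. Bhlhe40 to Pkm lie higher and Hcst to Sesn1 lower on all 3 stimulated arrays, and the third unstimulated replicate is the lowest of its group for all of them but Rgs1 and Ltb.

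Cytokine genes rose, but not evenly over the stimulated cultures. Of 29 cytokines and chemokines 13 rose and 1 fell, and 6 of the 13 rises stayed called in all 6 fits. Il2, the growth factor of T cells, read 5.56, 7.26 and 3.48 unstimulated and 12.22, 9.11 and 13.20 stimulated (rise 6.08, SE 1.02, adjusted p = 0.00227). Il3, a factor for myeloid progenitors, read 3.63, 4.24 and 2.68 against 10.24, 7.03 and 10.25 (rise 5.65, SE 0.79, adjusted p = 0.000709). Csf2, which encodes GM-CSF, read 5.20, 5.81 and 4.30 against 9.95, 8.00 and 11.53 (rise 4.73, SE 0.71, adjusted p = 0.00117). In all of these the second stimulated array was the lowest of its group, though above every unstimulated array. The chemokine Ccl3 behaved alike, at 5.28, 5.43 and 3.36 against 11.33, 7.88 and 12.19 (rise 5.77, SE 0.96, adjusted p = 0.0022). Tnfsf11, the RANK ligand, read 5.13, 5.70 and 3.33 against 10.90, 9.32 and 11.93 (rise 6.00, SE 0.69, adjusted p = 0.000193). Ccl4 rose by 4.06 and Lta, which encodes lymphotoxin alpha, by 3.33, and both were again lowest on the second stimulated array. Ccl4 was called in 4 of the 6 fits (lost without the first or the third stimulated array) and Lta in 3 (lost without these or the first unstimulated array).

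Another group of effector genes was ordered the other way. Ifng, the hallmark cytokine of Th1 cells, read 5.13, 5.68 and 3.13 unstimulated and 9.00, 10.29 and 6.27 stimulated (rise 3.87, SE 0.99, adjusted p = 0.0231, called in 2 of the 6 fits, those without the second unstimulated or the third stimulated array). Gzmb, a granule protease, read 6.37, 6.28 and 3.95 against 10.08, 11.38 and 6.72 (rise 3.86, SE 0.96, adjusted p = 0.0199, 3 of the 6 fits, lost without the first or second stimulated or the third unstimulated array). Il21, a helper cytokine, read 4.12, 4.40 and 3.00 against 7.21, 9.94 and 3.45, a difference of 3.02 that was not called (adjusted p = 0.0996). For these genes the third stimulated array was the lowest and the second the highest. Lif, a cytokine of the IL6 family, had the same order at smaller size, 9.17, 9.43 and 7.98, and rose by 3.74 (SE 0.57, adjusted p = 0.00124). Of the 13 cytokine rises 10 were lowest on the second stimulated array and 3 on the third, with a median within-group SD of 1.32 on the stimulated arrays, against 0.19 for all risen genes.

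The single fall of the list was Ltb, which encodes lymphotoxin beta and is made by resting T cells. It read 12.52, 12.96 and 12.67 unstimulated and 10.27, 10.43 and 9.79 stimulated, a fall of −2.55 (SE 0.50, adjusted p = 0.00597) with no overlap.

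**Figure D4:**
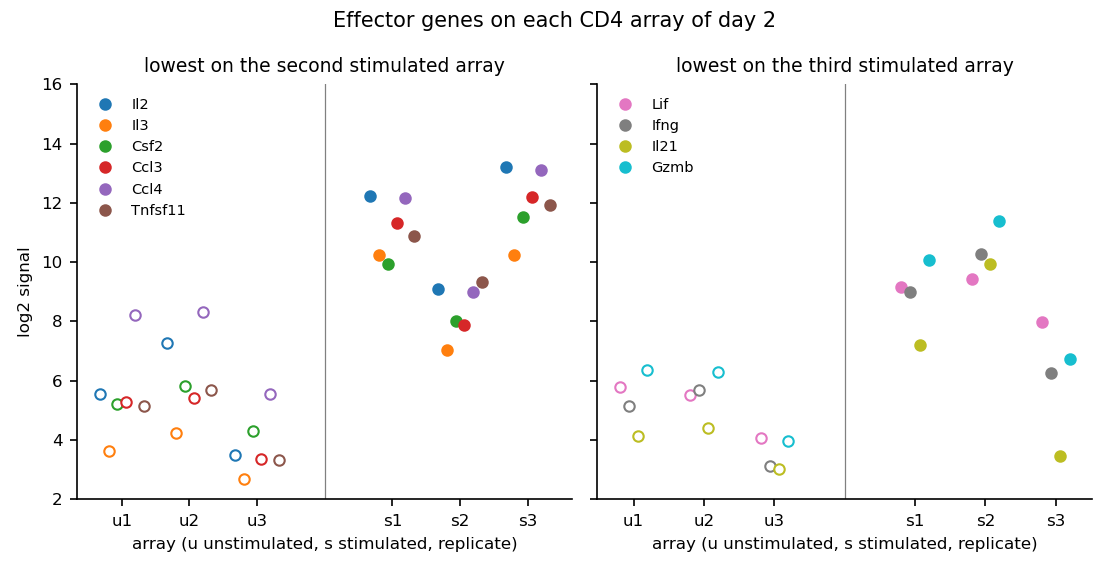
Log2 signal (y axis) of 10 effector genes on each CD4 array of day 2 (x axis, u1 to u3 unstimulated in open circles, s1 to s3 stimulated in filled circles). At the left Il2, Il3, Csf2, Ccl3, Ccl4 and Tnfsf11 are lowest on the second stimulated array, and at the right Lif, Ifng, Il21 and Gzmb are lowest on the third.

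Other programmes also differed among the stimulated arrays, by less. Of the 36 risen mitosis genes 21 were lowest on the third stimulated array and 26 highest on the second, with a median difference of 0.37 between those arrays. Of 26 risen replication genes 19 were lowest on the third. Ribosome biogenesis went the opposite way: 16 of 20 risen members were lowest on the second array and 15 highest on the third, with a median difference of −0.44 between the second and the third. Over all 12393 genes 5022 were lowest on the second array and 4024 on the third, and the median difference was −0.03. These arrays are replicates with no order of their own, and the differences among them are a description with no test.

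Receptor chains for IL2 and IL12 rose. Of 24 cytokine receptor genes 4 rose (16.7%, beside 10.7% of all genes) and 1 fell, and the groups did not overlap for 10 upward (41.7%, beside 29.0%) and 4 downward. Without both doubted arrays 9 were higher (37.5%) and 7 lower (29.2%), beside 26.2% and 39.4% of all genes, with a list median of 0.12. Il2ra, the high-affinity chain CD25, read 5.64, 5.95 and 3.36 unstimulated and 10.24, 11.15 and 9.01 stimulated (rise 5.15, SE 0.73, adjusted p = 0.000751). Il12rb1, a chain shared by the receptors for IL12 and IL23, read 6.99, 5.39 and 4.28 against 10.47, 10.20 and 10.64 (rise 4.88, SE 0.57, adjusted p = 0.000214). Il2rb and Il15ra rose by 2.61 and 3.20, in 4 and 3 of the 6 fits, each lost without the first or second stimulated array and Il15ra also without the third. The fall was Il7r, the receptor for the cytokine in both cultures, which went from 11.91, 10.94 and 10.90 to 6.98, 8.79 and 4.98 (−4.33, SE 0.80, adjusted p = 0.00431). Its stimulated arrays differed from each other by more than its unstimulated ones, the third being lowest, and all lay under the unstimulated group.

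Some costimulators of the TNF family and some inhibitory receptors rose. Of 31 costimulators 9 rose (29.0%) and of 15 inhibitory receptors and ligands 5 rose (33.3%), with none called lower. Without both doubted arrays 15 costimulators were higher (48.4%) and 4 lower (12.9%), beside 26.2% and 39.4% of all genes. The inhibitory genes then had 6 higher (40.0%) and 5 lower (33.3%), with a median of 0.00 in place of 0.65. Tnfrsf4, which encodes OX40, read 9.50, 10.72 and 7.42 unstimulated and 14.03, 13.79 and 14.12 stimulated (rise 4.77, SE 0.66, adjusted p = 0.0007). Cd5, a scaffold that tunes receptor strength, read 8.53, 10.05 and 7.94 against 13.06, 12.79 and 12.69 (rise 4.01, SE 0.74, adjusted p = 0.00411). Pdcd1lg2, a ligand of PD-1, read 6.30, 7.74 and 3.60 against 10.61, 10.17 and 11.27 (rise 4.80, SE 0.79, adjusted p = 0.0021). None of these genes overlapped between the groups. Fasl, the death ligand, rose by 3.31, Cd83 by 4.67, Ctla4 by 4.38 and Cd200 by 5.75. Cd70, the ligand of CD27, read 8.55, 3.89 and 11.14 on the stimulated arrays against 4.33, 4.56 and 3.32, a difference of 3.79 that was not called (adjusted p = 0.0633), and its second stimulated array lay within the unstimulated range.

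Of the genes of quiescence and lymph node homing, 3 of 23 fell and none was called higher, beside 0.718% lower among all genes. Klf2, the factor that holds T cells quiescent and recirculating, went from 11.46, 12.04 and 11.12 to 7.36, 7.16 and 6.93 (−4.38, SE 0.51, adjusted p = 0.00021). S1pr1, its target and the receptor for exit from lymph nodes, went from 9.20, 9.14 and 8.93 to 6.25, 6.45 and 5.66 (−2.97, SE 0.53, adjusted p = 0.00345). The third was Il7r, given above. Groups were apart for all 3, and the doubted array read like the other unstimulated arrays for them. Without both doubted arrays 7 members were called lower (30.4%, under the 39.4% of all genes) and 3 higher (13.0%, under 26.2%). Foxo1, which maintains Klf2 and Il7r in resting cells, was among the 7, at 10.74, 10.91 and 10.77 against 9.72, 10.40 and 9.22, a difference of −1.03 over all arrays (adjusted p = 0.169) and −1.05 without both doubted arrays.

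The largest falls included genes outside these pathways. Klrd1, an NK cell receptor chain that CD8 cells also carry, read 9.06, 10.68 and 12.10 unstimulated and 5.11, 6.30 and 4.51 stimulated (−5.30, SE 0.96, adjusted p = 0.00389). The doubted array was the highest for Klrd1, and without both doubted arrays the fall was −4.56. Cxcr4, a chemokine receptor, read 9.53, 10.40 and 10.96 against 5.52, 5.92 and 5.27 (−4.73, SE 0.79, adjusted p = 0.00237). Hcst, the signalling adaptor DAP10, read 12.30, 12.22 and 11.25 against 8.14, 8.32 and 7.81 (−3.83, SE 0.42, adjusted p = 0.000145). All 3 genes had groups that did not overlap. Ifi209, an interferon-induced gene, went from 11.79, 10.17 and 9.34 to 4.83, 6.38 and 4.90 (−5.06), and Bbip1, a small subunit of the BBSome, from 13.71, 12.62 and 12.13 to 7.73, 8.96 and 8.30 (−4.49). Dleu2, a non-coding RNA, fell by 4.04 and Actn2, an alpha actinin, by 3.88.

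Genes of amino acid supply held the largest rise of all. The list groups enzymes and carriers controlled by ATF4, a transcription factor translated when amino acids run short or when growth signals call for more. Of 37 measured, 26 rose and none was called lower, 22 of them in all 6 fits. Cth, which makes cysteine by transsulfuration, read 4.32, 5.20 and 3.00 unstimulated and 12.47, 11.61 and 12.71 stimulated (rise 8.09, SE 0.54, adjusted p = 5.70e-06). Asns, which makes asparagine, read 5.65, 6.28 and 3.90 against 13.03, 12.50 and 13.09 (rise 7.60, SE 0.64, adjusted p = 2.75e-05). Chac1, which breaks down glutathione, read 6.12, 4.99 and 4.02 against 9.90, 9.59 and 10.24 (rise 4.87, SE 0.54, adjusted p = 0.00015). The groups stood at least 3 log2 units apart for each of these genes. Branched-chain and alanine transaminases rose as well, Bcat1 from 5.79, 5.52 and 3.03 to 11.59, 10.86 and 11.62 (rise 6.58, SE 0.66, adjusted p = 6.94e-05) and Gpt2 by 6.20. The serine and one-carbon enzymes Psat1, Shmt1, Shmt2 and Mthfd2 rose by 4.81, 5.46, 4.73 and 3.47. Slc7a5 and Slc3a2, the chains of the large neutral amino acid carrier, rose by 4.15 and 4.69. Atf4 itself went from 9.02, 10.10 and 8.66 to 13.20, 12.87 and 13.14 (rise 3.81, SE 0.61, adjusted p = 0.00189), with 2 of its 3 probe sets higher and 1.38 (adjusted p = 0.0742, not called) for the mean of the 3. Nupr1, a stress gene of the same pathway, rose by 5.40.

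The enzymes that charge tRNAs with amino acids rose for the most part. Of 20 measured aminoacyl-tRNA synthetases 15 rose, 12 of them in all 6 fits, and the groups did not overlap for 18. Gars, for glycine, read 7.57, 8.59 and 6.92 unstimulated and 12.15, 11.64 and 11.86 stimulated (rise 4.19, SE 0.54, adjusted p = 0.000435). Kars, Tars, Yars and Aars, for lysine, threonine, tyrosine and alanine, rose by 4.42, 4.03, 3.43 and 3.19.

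Promoters of this pathway are known for the amino acid response element, the letters that ATF4 and its partners bind. The core TGATGNAAN, searched on both strands of RefSeq windows (GRCm38.p6) from 250 bases before to 50 after each gene's start, was found for 5 of the 10 risen synthetases with a window (50.0%) and for 5 of the 22 risen ATF4-type genes with one (22.7%). It stood in 4.0% of the windows of all 27025 symbols and 2.6% of those on the arrays. A match is a description of letters, not a site shown to be bound. The 250 bases before the start are given for 3 risen genes to show where the core lies, in capitals: Asns at chr6:7693210-7693459 (minus strand), Chac1 at chr2:119350992-119351241 (plus strand) and Gars at chr6:55037751-55038000 (plus strand).
Asns: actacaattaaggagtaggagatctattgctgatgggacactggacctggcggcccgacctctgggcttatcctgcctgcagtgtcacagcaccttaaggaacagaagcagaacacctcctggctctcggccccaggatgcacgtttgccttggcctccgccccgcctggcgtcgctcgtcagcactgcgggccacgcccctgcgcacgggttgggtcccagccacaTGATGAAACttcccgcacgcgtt
Chac1: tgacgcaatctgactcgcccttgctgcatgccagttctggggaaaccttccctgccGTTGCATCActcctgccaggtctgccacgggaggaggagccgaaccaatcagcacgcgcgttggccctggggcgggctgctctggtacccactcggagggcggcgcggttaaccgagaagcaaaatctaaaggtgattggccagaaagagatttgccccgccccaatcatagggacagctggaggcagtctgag
Gars: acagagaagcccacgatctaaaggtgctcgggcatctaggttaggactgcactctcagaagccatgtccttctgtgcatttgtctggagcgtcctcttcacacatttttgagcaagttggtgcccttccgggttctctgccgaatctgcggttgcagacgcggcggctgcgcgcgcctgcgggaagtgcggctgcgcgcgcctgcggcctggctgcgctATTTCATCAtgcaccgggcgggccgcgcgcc
In Asns the core starts 23 bases before the start and reads along the gene, whereas in Chac1 and Gars it lies on the opposite strand, 194 and 31 bases before.

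Many genes of ribosome assembly and translation showed moderate rises. Of 43 ribosome biogenesis factors 20 rose (46.5%, beside 10.7% of all genes), 6 in all 6 fits, with a median of 2.42. Without both doubted arrays 41 of 43 were higher (95.3%) and 1 lower (2.33%), beside 26.2% and 39.4% of all genes. Ncl, the nucleolar protein nucleolin, read 9.10, 8.75 and 8.48 unstimulated and 12.73, 13.05 and 13.06 stimulated (rise 4.17, SE 0.83, adjusted p = 0.00625). Rrn3, which lets RNA polymerase I start, read 5.14, 6.56 and 6.78 against 9.51, 9.19 and 9.66 (rise 3.29, SE 0.46, adjusted p = 0.000731). Pno1 and Rrp12, assembly factors of the small subunit, rose by 4.28 and 3.92. The stimulated arrays lay wholly above for 41 of the 43 (95.3%, beside 29.0% of all genes). The proteins of the finished ribosome were not among the rises: of 33 cytosolic ribosomal proteins none was called higher and 1, Rpl37, was called lower (−1.54), in 1 of the 6 fits, the one without the third unstimulated array. The groups did not overlap for 16 of them downward (48.5%) and 8 upward (24.2%), beside 4.17% and 29.0% of all genes. Without both doubted arrays 6 were higher (18.2%) and 7 lower (21.2%), Rpl37 among them (−1.89), beside 26.2% and 39.4% of all genes. By median, translation factors lay between these lists, at 2.12 against 2.42 for biogenesis factors and −0.12 for ribosomal proteins. By calls they did not, with 14 of 26 higher (53.8%, beside 46.5% of biogenesis factors), 3 of them in all 6 fits. Among the 14 was Eif4ebp1, an inhibitor of cap-dependent initiation (2.89, SE 0.51, adjusted p = 0.00343). The E-box CACGTG, the letters bound by MYC, stood in the windows of 6 of 17 risen biogenesis genes (35.3%) and in 9.3% of those on the arrays.

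Energy metabolism rose in parts. Of 22 glycolysis and lactate genes 8 rose, 7 in all 6 fits. Tpi1, triose phosphate isomerase, read 6.85, 9.23 and 7.82 unstimulated and 13.33, 13.26 and 12.62 stimulated (rise 5.10, SE 0.93, adjusted p = 0.00387). Pkm, pyruvate kinase, read 7.04, 8.36 and 5.94 against 12.14, 12.00 and 11.56 (rise 4.79, SE 0.71, adjusted p = 0.00112). Both were apart on every array, and Hk2, Slc16a1 and Pgam1, for the first step, lactate export and a late step, rose by 5.01, 4.77 and 3.74. Ldha, lactate dehydrogenase, did not overlap between groups, at 10.40, 11.75 and 9.60 against 13.31, 13.01 and 12.90, but missed the threshold (2.49, adjusted p = 0.0559) and passed it without both doubted arrays (2.00). Of 50 respiratory chain genes 3 rose (6.0%) and 2 fell (4.0%), beside 10.7% and 0.718% of all genes. Atp5b, the catalytic subunit of ATP synthase, rose from 7.44, 8.26 and 7.81 to 13.21, 12.70 and 12.93 (rise 5.11, SE 0.81, adjusted p = 0.00164). Against it the complex I subunits Ndufa2 and Ndufa5 fell by 1.33 and 1.48, each called in 1 of the 6 fits, the one without the third unstimulated array. The list had 16 higher (32.0%) and 15 lower without both doubted arrays, beside 26.2% and 39.4% of all genes, so its calls went both ways. Stimulated arrays lay wholly above for 21 of the 50 (42.0%) and wholly below for 6 (12.0%), beside 29.0% and 4.17% of all genes. Mitochondrial import and ribosome genes had 13 of 40 higher, such as the chaperone Hspa9 (2.97, 2 of its 4 probe sets) and the import receptor Timm50 (3.25), and 5 of 24 genes of the tricarboxylic acid cycle and glutamine use rose, none of them in all 6 fits.

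Lipid, polyamine and protein folding genes followed. Of 23 fatty acid genes 6 rose (26.1%, beside 10.7% of all genes), led by Scd2, which puts a double bond into fatty acids. Scd2 read 5.37, 4.87 and 4.02 unstimulated against 11.06, 10.72 and 10.94 stimulated (rise 6.15, SE 0.54, adjusted p = 3.71e-05, no overlap). Of 22 sterol genes 7 rose (31.8%), with Sqle, squalene epoxidase, in all 6 fits (4.02). Without the third unstimulated CD4 array alone 4 of the 22 were called higher, and under quantile normalization the list median was −0.13. Odc1, the first enzyme of polyamine synthesis, went from 8.57, 10.03 and 8.24 to 13.44, 13.15 and 13.43 (rise 4.40, SE 0.78, adjusted p = 0.00353, no overlap). Folding helpers of the endoplasmic reticulum rose for 14 of 28 (50.0%), among them Pdia3 (3.42) and Creld2 (3.13). Cytosolic chaperones rose for 8 of 25 (32.0%), among them the cochaperone Stip1 (2.99). Proteasome genes rose for 7 of 36 (19.4%), among them the base subunit Psmd2 (3.36) and the activator Psme3 (3.34). For the proteasome 27 members were higher and 2 lower without both doubted arrays.

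DNA replication genes rose together. Of 44 measured, 26 rose (59.1%, beside 10.7% of all genes) and none was called lower, 17 of the 26 in all 6 fits. For 43 the stimulated arrays lay wholly above the unstimulated ones (97.7%, beside 29.0% of all genes). Cdc6, which loads the replicative helicase, read 5.23, 4.99 and 2.96 unstimulated and 11.29, 11.15 and 10.96 stimulated (rise 6.74, SE 0.68, adjusted p = 6.94e-05). Mcm5, a helicase subunit, read 5.33, 4.17 and 3.83 against 10.90, 10.73 and 10.67 (rise 6.33, SE 0.59, adjusted p = 4.67e-05). Gins1, which completes the helicase, read 6.03, 6.12 and 5.42 against 9.99, 10.13 and 9.59 (rise 4.05, SE 0.38, adjusted p = 4.86e-05). The groups were widely separated for all of them. Top2a, which untangles DNA, Cdc45 and Prim1 rose by 5.08, 4.27 and 4.44. Of 24 nucleotide synthesis genes 10 rose. Rrm2, the regulated subunit of ribonucleotide reductase, read 7.75, 6.90 and 5.21 against 12.30, 12.38 and 12.19 (rise 5.67, SE 0.59, adjusted p = 9.58e-05), and Tk1, Gart and Umps, of thymidine, purine and pyrimidine synthesis, rose by 5.25, 3.51 and 3.44.

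E2F factors release replication genes at the start of S phase. Their letters (TTTGGCGC, TTTCCCGC or TTTCGCGC, either strand, windows as above) stood in 5 of 20 risen replication genes with a window (25.0%), in 1.9% of all windows and in 3.2% of those on the arrays. The 250 bases before the start are given for Cdc6 (chr11:98907901-98908150, plus strand) and Mcm5 (chr8:75109259-75109508, plus strand), the largest rises with a match, with the matches in capitals.
Cdc6: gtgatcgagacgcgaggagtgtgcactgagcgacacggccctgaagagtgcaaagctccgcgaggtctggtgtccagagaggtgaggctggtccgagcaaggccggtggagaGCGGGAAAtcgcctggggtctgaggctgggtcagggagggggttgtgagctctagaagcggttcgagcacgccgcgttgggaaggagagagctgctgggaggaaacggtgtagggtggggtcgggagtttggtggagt
Mcm5: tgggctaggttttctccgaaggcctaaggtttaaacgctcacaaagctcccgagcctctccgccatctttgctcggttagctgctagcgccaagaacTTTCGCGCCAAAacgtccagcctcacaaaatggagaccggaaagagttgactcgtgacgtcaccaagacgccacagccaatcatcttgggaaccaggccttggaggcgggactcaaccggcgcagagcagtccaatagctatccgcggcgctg
Cdc6 has 1 match on the opposite strand, 138 bases before the start. Mcm5 has 2 matches that overlap, beginning 153 and 149 bases before, on opposite strands.

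Mitosis was the list with the most risen members. Of 48 genes 36 rose and none was called lower, 26 in all 6 fits, and for 44 the stimulated arrays lay wholly above. Birc5, which encodes survivin of the chromosomal passenger complex, read 4.48, 4.03 and 3.74 unstimulated and 10.12, 10.09 and 9.73 stimulated (rise 5.90, SE 0.40, adjusted p = 5.70e-06). Aurkb, its kinase partner, read 4.46, 4.44 and 3.47 against 10.02, 10.12 and 9.76 (rise 5.85, SE 0.42, adjusted p = 1.05e-05). Cdk1, the mitotic kinase, read 5.30, 6.24 and 5.48 against 10.95, 10.87 and 10.89 (rise 5.23, SE 0.42, adjusted p = 2.32e-05). These values were tight within both groups, and their standard errors were below the median of 0.56 over all genes. Ube2c, the enzyme that feeds ubiquitin to the anaphase-promoting complex, rose from 6.15, 5.36 and 2.83 to 11.03, 11.37 and 11.21 (rise 6.42, SE 0.78, adjusted p = 0.000258), and Cdc20, its activator, by 3.88. Kif11, the motor that separates spindle poles, read 5.20, 5.33 and 3.89 against 6.79, 7.95 and 7.25 (rise 2.52, SE 0.53, adjusted p = 0.00835) and was not called without the second stimulated array. Cenpe, a kinetochore motor, stayed near the lowest signals of the arrays in both groups, at 3.31, 3.10 and 2.68 against 3.36, 3.34 and 3.59.

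Many mitotic promoters hold the cell cycle homology region, TTTGAA, through which a repressor complex silences them in resting cells. It stood in 23 of 30 risen mitosis genes with a window (76.7%), in 18.1% of all windows, in 13.0% of those on the arrays and in 14.5% of those of all risen genes (either strand). The 250 bases before the start are given for Ube2c (chr2:164769679-164769928, plus strand), Cdc20 (chr4:118437344-118437593, minus strand) and Kif11 (chr19:37376132-37376381, plus strand) to show that the match, in capitals, lies close to the start in each.
Ube2c: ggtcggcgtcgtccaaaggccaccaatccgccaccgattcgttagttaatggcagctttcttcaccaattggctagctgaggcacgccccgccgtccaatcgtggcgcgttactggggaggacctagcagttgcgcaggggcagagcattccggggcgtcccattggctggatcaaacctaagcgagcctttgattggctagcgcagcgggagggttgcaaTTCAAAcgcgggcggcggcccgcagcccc
Cdc20: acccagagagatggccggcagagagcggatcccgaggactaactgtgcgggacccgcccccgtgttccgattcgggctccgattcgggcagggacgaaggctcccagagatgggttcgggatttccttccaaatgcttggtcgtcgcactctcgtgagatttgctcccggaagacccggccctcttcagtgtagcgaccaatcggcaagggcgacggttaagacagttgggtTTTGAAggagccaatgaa
Kif11: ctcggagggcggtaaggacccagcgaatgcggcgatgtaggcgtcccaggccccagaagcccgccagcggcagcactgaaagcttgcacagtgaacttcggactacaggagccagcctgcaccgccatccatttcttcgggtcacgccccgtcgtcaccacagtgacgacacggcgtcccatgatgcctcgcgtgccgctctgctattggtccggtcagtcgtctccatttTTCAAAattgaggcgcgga
The match begins 29, 18 and 19 bases before the start, on the opposite strand in Ube2c and Kif11 and along the gene in Cdc20.

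Cyclins, their kinases and inhibitors were mixed. Of 33 measured 11 rose, 6 in all 6 fits. Cdk2, the S phase kinase, rose by 3.24, E2f8 and Tfdp1, of the E2F family and its partners, by 4.79 each, and Chek1, the checkpoint kinase, by 4.90, where 2 of its 4 probe sets rose. An inhibitor of these kinases rose too: Cdkn1a, p21, went from 7.36, 7.41 and 5.27 to 12.40, 12.49 and 12.59 (rise 5.81, SE 0.56, adjusted p = 5.26e-05) with no overlap. Cdkn1b, p27, which holds resting T cells out of the cycle, read 9.51, 8.85 and 8.03 against 7.93, 8.37 and 7.69, a difference of −0.80 that was not called (adjusted p = 0.304) and −1.18, called lower, without both doubted arrays. Of 18 p53 targets, a list that holds Cdkn1a too, 8 rose and 1 fell. Perp, a death effector of the membrane, rose by 4.13 and Sesn2, a sestrin that restrains mTORC1, by 3.14. Its relative Sesn1 fell from 11.71, 12.00 and 11.37 to 9.46, 9.70 and 9.32 (−2.20, SE 0.46, adjusted p = 0.00888), so these 2 sestrins moved in opposite directions with no overlap. Uhrf1, which carries DNA methylation through replication and was one of the 10 largest rises, went up by 6.67 (SE 0.72, adjusted p = 0.000125). Chromatin genes rose for 10 of 28, such as the histone methyltransferase Ezh2 (4.13), the remodeller Hells (4.21) and the DNA methyltransferase Dnmt3a (3.76).

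Of 17 BCL2 family genes, which decide survival, 5 rose (29.4%, beside 10.7% of all genes), 1 of them in all 6 fits. Without both doubted arrays 6 were higher (35.3%) and 5 lower (29.4%), beside 26.2% and 39.4% of all genes. Pmaip1, which encodes the death activator NOXA, went from 3.66, 4.72 and 4.26 to 6.84, 7.39 and 6.97 (rise 2.85, SE 0.45, adjusted p = 0.00156, no overlap). Bcl2l1, the guardian BCL-XL, read 8.29, 8.52 and 5.11 against 10.26, 9.72 and 11.10 (rise 3.05, SE 0.88, adjusted p = 0.039) and was called in 1 of the 6 fits, the one without the second unstimulated array. It differed by 1.96 without the third unstimulated array and by 1.27 (adjusted p = 0.153) for the mean of its probe sets. Bcl2l11, the death activator BIM, did not overlap, at 11.11, 12.10 and 11.14 against 9.73, 9.70 and 8.92, but was not called (−2.00, adjusted p = 0.0894), and 3 of its 5 probe sets moved down. Over the 993 list genes 887 kept their call without the third unstimulated CD4 array alone, 59 lost it, all of them rises, 3 became higher and 44 lower, and none changed to the opposite call. Of the genes whose call changed, the difference moved most for Bcl2l2, another survival gene, which read 7.41, 6.45 and 3.50 against 8.73, 8.19 and 8.78 (called in 2 of the 6 fits, with a rise of 2.78 over all arrays and 1.63 without the third), Gzmk, Rsad2, Bcl2l1 and Cdkn2b. Bcl2l1 is given above, and Gzmk, Rsad2 and Cdkn2b were not called over all arrays. Gzmk, a granzyme, differed by −0.88 over all arrays and by −1.99 without both doubted arrays, Rsad2, an antiviral enzyme, by −1.47 and −2.57, and Cdkn2b, a CDK inhibitor, by −0.82 and −1.89, each called lower then.

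Adhesion, cytotoxic and interferon genes were called higher at shares of 17.9%, 19.0% and 10.0%, beside 10.7% of all genes. Of 28 adhesion and migration genes 5 rose and 1, Cxcr4, fell. Cd44, the hyaluronan receptor that marks activated cells, read 7.01, 6.58 and 5.80 unstimulated and 10.26, 10.04 and 10.90 stimulated (rise 3.94, SE 0.70, adjusted p = 0.00354, no overlap). Without both doubted arrays 6 adhesion genes were higher and 12 lower (42.9%, beside 39.4% of all genes). Of 21 cytotoxic genes 4 rose and Klrd1 fell, and the rises included Serpinb9 (3.58, SE 0.50, adjusted p = 0.000728), which inhibits granzyme B inside the cell that carries it, and its relative Serpinb6b (4.09). Of 30 interferon response genes 3 rose. Ifitm3, which blocks virus entry, read 5.39, 7.28 and 2.86 against 11.97, 12.25 and 10.73 (rise 6.47, SE 0.90, adjusted p = 0.000709). Plscr1, a scramblase that interferon induces and one of the 10 largest rises, read 4.38, 5.91 and 3.07 against 11.54, 11.51 and 11.43 (rise 7.04, SE 0.61, adjusted p = 3.24e-05). Both were wholly higher on the stimulated arrays, as were 29.0% of all genes. Without both doubted arrays 8 interferon genes were higher (26.7%) and 10 lower (33.3%), beside 26.2% and 39.4% of all genes.

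What remained of this response 3 days later was read from arrays that the day 2 comparison did not use. Transient cells had 1197 genes higher (9.66%) and 1624 lower (13.1%) than the never stimulated cells of day 5, and continuous cells 1229 higher (9.92%) and 1341 lower (10.8%). Both comparisons share the same 2 unstimulated arrays, so each is given on its own. Of the 1320 day 2 rises 175 were higher in transient cells (13.3%), 304 lower (23.0%) and 841 not called, with a median of −0.08. In continuous cells 480 were higher (36.4%), 65 lower and 775 not called, with a median of 0.35. The 175 were 14.6% of the genes higher in transient cells, and the 480 were 39.1% of those higher in continuous cells. Of the 89 day 2 falls 12 were lower in transient cells (13.5%, near the 13.1% of all genes), with a median of 0.08. In continuous cells 39 of the falls were lower (43.8%, beside 10.8% of all genes), with a median of −0.73. On the transient arrays the Actb 3′ minus 5′ difference was 2.42 to 2.73, against 0.67 to 0.98 unstimulated and 0.40 to 0.62 continuous. B cell markers averaged 7.75 to 8.58 on the transient arrays, 5.55 to 6.01 unstimulated and 5.47 to 5.65 continuous, with 6 of 12 called higher in transient cells. Cd4 read 7.68 and 7.88 on the transient arrays, against 9.22 to 9.60 unstimulated and 9.48 to 9.86 continuous, while Cd8b1 was at 5.29 to 5.76 on all 7. Cd8a was higher in transient cells by 0.62 (6.16 and 6.22 against 5.51 and 5.62), and of 7 CD8 markers 2 were higher and 2 lower there. Myeloid and dendritic markers averaged 6.08 and 7.81 unstimulated, 7.44 and 9.37 transient and 5.48 to 7.93 continuous, with 1 of 16 higher in transient cells. For 6 NK cell markers the averages were 5.18 and 5.59, 5.90 and 7.04, and 6.70 to 7.48, with 1 higher in transient and 2 in continuous cells. The part of these differences in the counts was not tested. The 175 became 94, 98 or 97 when stimulated array 1, 2 or 3 of day 2 was left out, 114 without the first transient array and 13 in a single fit over all 28 arrays, and the 480 became 249, 279 or 274 without those stimulated arrays and 178 in the single fit.

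**Figure D5:**
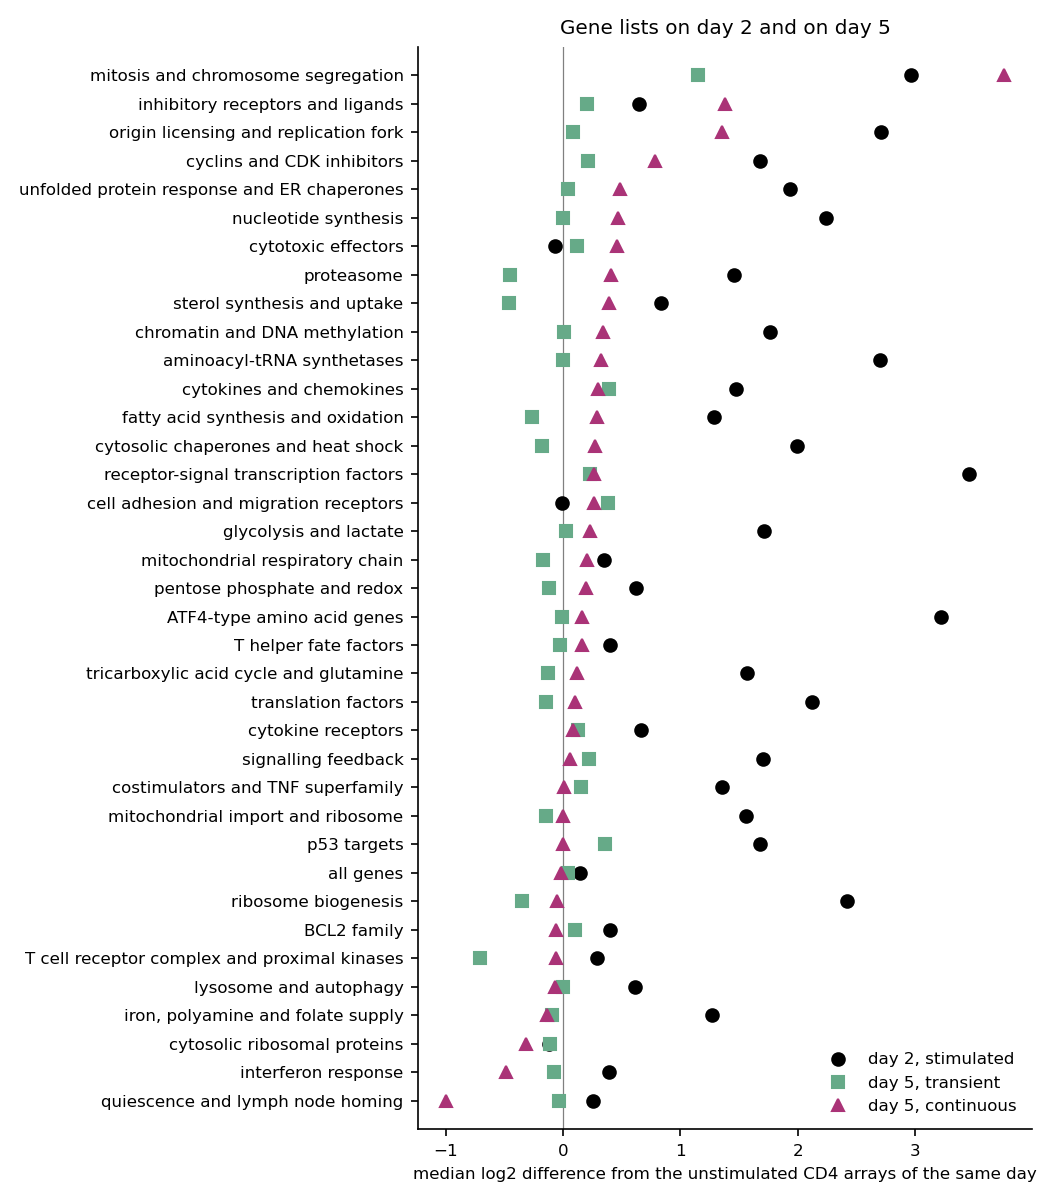
Median log2 difference of each gene list (x axis) from the unstimulated CD4 arrays of the same day, for day 2 stimulated (circles), day 5 transient (squares) and day 5 continuous cells (triangles). Mitosis genes lie at 2.97, 1.15 and 3.76, whereas ATF4-type amino acid genes lie at 3.22, −0.01 and 0.16.

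The lists differed on day 5. Over all genes 9.92% were higher and 10.8% lower in continuous cells, and 9.66% higher and 13.1% lower in transient cells. Replication genes were higher for 37 of 44 and lower for none in continuous cells, and 6 were higher and 6 lower in transient cells. Mcm5 differed from unstimulated cells by 2.53 in continuous cells, where it was called, and by −0.92 in transient cells, where it was not. Mitosis genes were higher for 47 of 48 in continuous and 11 of 48 in transient cells, and Birc5 stood at 5.14 (called) and 1.10 (not called). Cenpe, not called on day 2, was higher by 3.65 in continuous cells. The ATF4-type genes had 9 of 37 higher and 1 lower in continuous and 3 and 3 in transient cells. Cth, with the largest rise of day 2, was at 0.21 and 0.22 in continuous and transient cells and was called in neither, as was Chac1, at 0.10 and 0.02. Of 43 ribosome biogenesis genes 3 were higher and 4 lower in continuous cells, and 4 higher and 12 lower in transient cells. Ncl differed by −1.64 and Rrn3 by −1.38 in transient cells, both called lower. The ribosome biogenesis counts in continuous cells, and the replication and ATF4-type counts in transient cells, were near the shares of all genes.

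Several signal-linked genes of the day 2 response were high in both settings. Ctla4 was higher by 3.45 in transient and 4.07 in continuous cells, Rgs1 by 3.33 in each, Bhlhe40 by 2.78 and 4.05, Pmaip1 by 2.90 and 3.94, Cd44 by 3.60 and 2.00, and Tbx21 by 2.27 and 5.16, all called. These are an inhibitory receptor, a brake on chemokine receptors, effector factors, a death activator and an adhesion receptor. Among cytokines Il2 was higher in transient cells (2.04) and not called in continuous cells (0.46), whereas Ifng and Il21 were higher in continuous cells (5.83 and 6.44) and not called in transient cells (1.57 and 0.18). Il21, whose stimulated values on day 2 ran from 3.45 to 9.94, was called on day 5 in continuous cells. Of the falls, S1pr1 was lower in both (−2.51 transient and −1.01 continuous), Klf2 was lower in transient cells (−1.84) and not called in continuous cells (−0.27), and Il7r the reverse, lower in continuous cells (−4.12) and not called in transient cells (−1.41). Cxcr4, which fell on day 2, was higher by 1.73 in continuous cells. Other rises were called higher in continuous and lower in transient cells, such as Gins1 (2.63 and −1.38), Prim1 (1.94 and −1.27) and Pkm (1.41 and −1.98).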

How the data were processed

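Per the labels' protocols, total RNA of sorted mouse T cells was amplified and hybridised to Affymetrix Mouse 430A2 arrays. The authors deposited log2 values from RMA, per the submitters' processing notes. RMA corrects background, normalizes and summarises the probes of a set, and its version is not given in the sources used here. Arrays have no read depth, so the number of arrays limits the precision. Each gene was represented by its brightest probe set (mean of all arrays), among the 20380 with 1 symbol in the platform annotation. limma 3.58.1 in R 4.3.3 was fitted with a mean per group to the 12 arrays of day 2 and, apart from these, to the 16 arrays of day 5. The empirical Bayes test was two-sided with Benjamini-Hochberg adjustment over 12393 genes, and a call needed an adjusted p below 0.05. Standard errors are those of the fit.

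The members and lists were chosen with earlier results of these data known, so lists are described by counts and medians with no test. Genes named are the 10 largest rises and falls whose groups did not overlap and which were called alike without both doubted arrays (the third unstimulated array of each cell type), members of the lists, and list genes whose call rested on the third unstimulated CD4 array. Some were not described further. One activation marker, Cd69, was not used here. Promoter windows are from RefSeq (GRCm38.p6), read from a table by symbol.

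The alternatives were other gene summaries, filters, scalings, thresholds, sets of arrays and array weights, a replicate block and leaving out each CD4 array. The fit was tested on simulated data: of 200 genes changed among 12393, differences of 1 were recovered for 2% and of 3 for 85%, with 3 false calls. Without both doubted arrays it recovered 33% and 98%, with 4 false calls. The simulated noise was independent between genes and arrays, no array was shifted as a whole, and most genes were unchanged. The false calls therefore do not measure the error of the fit to the real arrays. The samples were not treated as paired by replicate number in the main fit. Deviations from the group means correlated at −0.18, −0.16 and −0.02 for the same numbers and at −0.03 to 0.26 for different ones. With 3 arrays a group, 1 of them doubted, these values cannot decide whether the cultures were paired.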

Additional observations from a re-analysis of the deposited data

How the results depend on the processing

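Of 16 alternatives that kept the CD4 arrays or dropped the doubted ones, 7 left both day 2 counts within 1.5 times of 1320 higher and 89 lower. A fit with the replicate number as a block gave 1560 and 78, with 210 day 2 rises higher in transient and 464 in continuous cells, and no called gene named here changed direction, though Dgkz, Ndufa2, Ndufa5 and Rpl37 were no longer called with the block. Array weights ended the calls of Ccl3, Ccl4, Gzmb, Ifng, Il7r and Kif11. Array weights gave 2221 higher and 2181 lower, 1 fit over all 28 arrays 3123 and 544, and an adjusted p below 0.01 gave 490 and 31. The CD4 arrays alone without the third unstimulated one gave 2642 and 3836. Median centring gave 2173 and 3727, quantile normalization 1484 lower, and leaving out both doubted arrays 3251 and 4888. With both doubted arrays left out, quantile normalization gave 2321 and 3245 and median centring 3043 and 5373, alternatives chosen after seeing the data. Leaving out 1 CD4 array at a time gave 529 to 1672 higher and 32 to 2250 lower.

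The 175 day 2 rises that were higher in transient cells became 272 with array weights, 13 over all 28 arrays, 54 at the stricter p and 103 at a 2-fold minimum. They were 383 without both doubted arrays, 313 in CD4 arrays alone without the third, 273 and 359 with the added quantile and median settings, and 94 to 200 with 1 array left out. The 480 higher in continuous cells became 763, 178, 185 and 297 under the first 4 of these, 801 without both doubted arrays, 779 with the added median setting and 249 to 554 with 1 array left out.

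Among named genes, differences changed sign only where they had not been called. Cd4 went from 1.70 to −0.12 with the added quantile setting and Cenpe from 0.40 to −0.22 with median centring. Cd8b1, at −1.38, was 0.07 without both doubted arrays and 0.46 with the added quantile setting. With 1 array left out Cd8b1 ran from −2.33 to 0.07, Cdkn2b from −1.89 to 0.05 and Egr3 from −1.36 to 0.17. Egr3 was at 0.00 without the first unstimulated array. The causes were not tested. With 3 arrays a group, small differences could go undetected, and signals near background may understate changes.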
